A study of Homo sapiens with 4 samples.

Results

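The response to MYC induction was read from 2 RNA-seq libraries of SK-MEL-28, an established human melanoma cell line of pigment cell origin. The line had been transduced with a lentivirus carrying a MYC gene under a tetracycline-inducible promoter. One library came from these cells without doxycycline (Dox, the drug that switches the promoter on; MYC line without Dox) and the other from the same line given 0.5 ug/ml Dox for 54 h (MYC line with Dox). These are 2 of the 4 libraries of the series. The other 2 came from the same cell line given pTRIPZ with no insert, again without and with Dox (vector line), and all infected cells had been selected with geneticin. Each line and treatment was 1 library, so no value below has a replicate error and no test was possible. The chromosomal MYC gene was present in all 4 libraries.

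MYC is a transcription factor that binds DNA as a dimer with MAX, preferring the E-box letters CACGTG. It is best known for raising the transcripts that build ribosomes, nucleotides, polyamines and mitochondria, and for lowering inhibitors of the cell cycle and genes of differentiation and adhesion. Proteins of the MXD, MXI1 and MNT group pair with MAX and compete for the same sites. In melanocytes MITF, a factor of the same helix-loop-helix class, also reads E-boxes and drives pigment and lysosomal genes.

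Expression was given as FPKM, the fragments of a gene scaled to its transcript length and to all mapped fragments of the library. The table held 25268 gene symbols, of which 11147 averaged 1 FPKM or more across the 4 libraries and were kept. A change is the difference of log2(FPKM + 0.1) with Dox minus without Dox. A gene is said to have risen or fallen where this reached 1.5-fold. FPKM are relative to each library's own total, so a change in the total RNA of a cell cannot be seen in them. With Dox, 658 genes rose in the MYC line (5.9% of those kept) and 986 fell (8.85%). The counts of each gene list below are to be read against these shares. In the vector line 79 rose (0.709%) and 49 fell (0.44%). The MYC line thus had more genes past 1.5-fold in each direction than the vector line. The robust SD of the change over all genes was 0.36 in the MYC line and 0.11 in the vector line, and it was 0.11 between both untreated lines.

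The library with MYC and Dox lay at least 1.5-fold above each of the other 3 libraries for 465 genes (4.17%) and at least 1.5-fold below each of them for 653 (5.86%). Of the 658 genes that rose, 640 were highest in that library by any margin, and of the 986 that fell, 960 were lowest there. These genes were picked by the value of that library, so their place there was largely set by the choice. Changes were of moderate size. The median was 1.68-fold for genes that rose and 1.73-fold for genes that fell, with 117 and 228 genes past 2-fold. The genes that fell held more transcript. Their summed FPKM was 67449 without Dox and 35480 with Dox, whereas the genes that rose summed to 23657 and 39550. In both lines 21 genes rose, which is 3.19% of those in the MYC line and 26.6% of those in the vector line, and 16 fell, which is 1.62% and 32.7%.

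**Figure D1:**
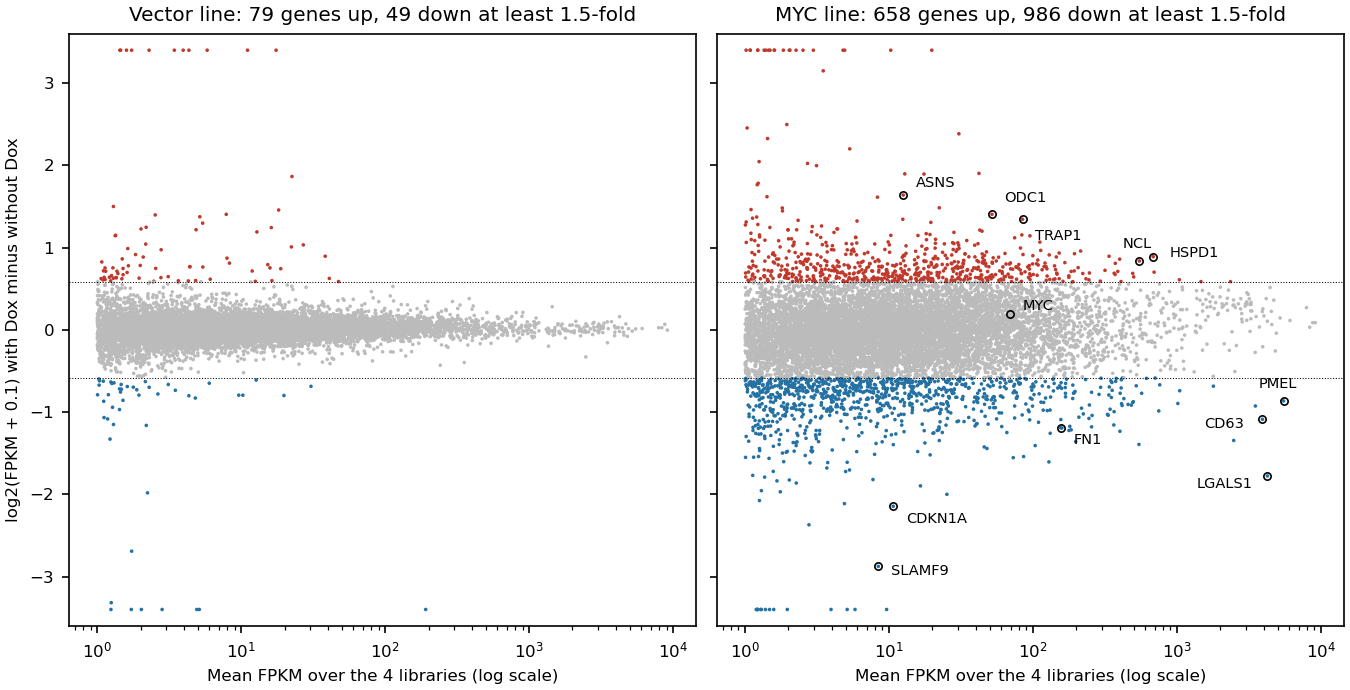
Change with Dox on the log2(FPKM + 0.1) scale (y) against mean FPKM over the 4 libraries (x, log scale) for 11147 genes, in the vector line (left) and the MYC line (right). Red points rose and blue points fell by at least 1.5-fold (dotted lines), circles mark genes described in the text, and points beyond 3.4 on either side (18 in the vector line, 35 in the MYC line) are drawn at that limit; the spread is wider in the MYC line than in the vector line across the whole range of levels.

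The contrast was also seen where counting noise is low. Among 1016 genes of 100 FPKM or more, 5.51% rose and 9.55% fell in the MYC line, against 0.0984% changed in either direction in the vector line. Among 1338 genes of 1 to 2 FPKM these shares were 7.17%, 15.02% and 4.71%. Of the genes kept, 73 passed the limit of 1 FPKM only through the induced library, and 47 of these counted as risen. Genes that fell had a median of 7 exons, against 9 in genes that rose and in genes that did neither.

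MYC itself, on chromosome 8 (128747680 to 128755197, GRCh37), changed little in FPKM. Its level was 58.3 and 54.8 FPKM in the vector line (without, then with Dox), and 76.5 and 87.1 FPKM in the MYC line. Both libraries of the MYC line lay above both of the vector line. The rise with Dox was 1.14-fold, a change of 0.19. The table holds 1 value for the symbol, so transcripts of the introduced and the chromosomal gene cannot be told apart.

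The partners and competitors of MYC stayed within 1.5-fold. None of the 9 kept genes of this network rose or fell, and their changes ran from -0.49 to 0.30. MAX, the obligate partner, had 32.2 FPKM without and 38.7 FPKM with Dox. MXI1 had 20.4 and 22.4 FPKM, MNT had 5.08 and 5.45 FPKM, and MXD4 had 4.55 and 3.76 FPKM.

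Genes commonly listed as activated by MYC rose as a group. Of 57 kept, 39 rose and none fell, and the median change was 0.70 against -0.03 over all genes. The same 57 genes had a median change of 0.05 in the vector line. NOP16, a nucleolar factor on chromosome 5 (175810949 to 175815928, GRCh37), was at 68.2, 68.0 and 61.4 FPKM in the 3 libraries other than the induced one and at 137 FPKM in that library. NCL (nucleolin, the main nucleolar RNA-binding protein) was at 437, 447 and 468 FPKM in those libraries and at 837 FPKM with MYC and Dox. SLC19A1, the reduced folate carrier, went from 7.79 to 16.4 FPKM. The induced library was apart for each of these genes, the other 3 lying close together. SLC19A1 was named for its rise and NOP16 was also among the largest rises, so these genes do not stand for the list.

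**Figure D2:**
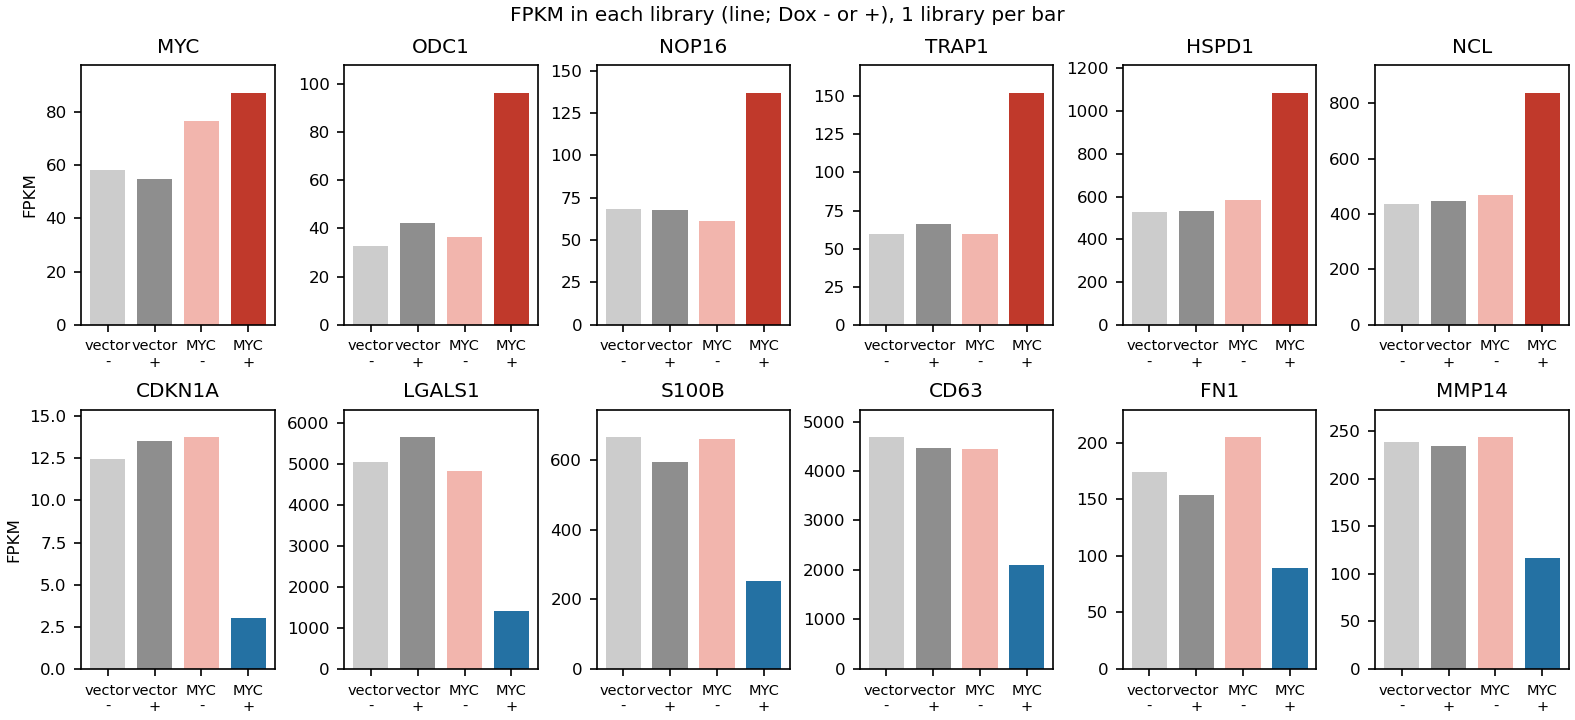
FPKM (y, linear from 0) of MYC and 11 of the genes described, 1 bar for each library, in the order vector line without (-) and with (+) Dox, MYC line without and with Dox. MYC differed by 1.14-fold between both MYC-line bars, while the other genes of the upper row were 1.79-fold to 2.65-fold higher and those of the lower row 2.08-fold to 4.42-fold lower in the last bar than in the one before it.

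Promoters of these genes are shown because the E-box is the letter string that MYC and MAX prefer. The sequences are RefSeq windows from 250 bases before to 50 bases after an annotated start (build GRCh38.p14), written 5′ to 3′ on the gene's strand, with each CACGTG in capitals. The first 4 belong to genes that rose. They are ODC1 (ornithine decarboxylase, chr2:10447963-10448262, minus strand), FBL (fibrillarin, chr19:39846330-39846629, minus strand), GNL3 (nucleostemin, chr3:52685782-52686081, plus strand) and HSPD1 (the mitochondrial chaperonin, chr2:197500225-197500524, minus strand). The last pair, LAMP1 (chr13:113296989-113297288, plus strand) and CTSD (chr11:1763878-1764177, minus strand), belong to lysosomal genes that hold the same letters and did not rise. ODC1, GNL3 and HSPD1 have more than 1 annotated start, and the window with the letters is shown.
ODC1: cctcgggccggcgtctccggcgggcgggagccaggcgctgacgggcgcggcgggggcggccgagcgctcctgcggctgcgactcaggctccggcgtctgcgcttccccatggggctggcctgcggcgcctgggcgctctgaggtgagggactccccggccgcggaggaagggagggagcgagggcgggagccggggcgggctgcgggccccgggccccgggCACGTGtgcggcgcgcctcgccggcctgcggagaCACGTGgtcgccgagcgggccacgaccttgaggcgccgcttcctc
FBL: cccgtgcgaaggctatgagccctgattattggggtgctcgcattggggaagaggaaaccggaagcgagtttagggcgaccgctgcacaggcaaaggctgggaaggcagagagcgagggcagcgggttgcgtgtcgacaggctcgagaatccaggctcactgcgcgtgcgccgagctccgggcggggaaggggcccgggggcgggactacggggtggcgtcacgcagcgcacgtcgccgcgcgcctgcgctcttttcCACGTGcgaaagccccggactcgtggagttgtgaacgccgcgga
GNL3: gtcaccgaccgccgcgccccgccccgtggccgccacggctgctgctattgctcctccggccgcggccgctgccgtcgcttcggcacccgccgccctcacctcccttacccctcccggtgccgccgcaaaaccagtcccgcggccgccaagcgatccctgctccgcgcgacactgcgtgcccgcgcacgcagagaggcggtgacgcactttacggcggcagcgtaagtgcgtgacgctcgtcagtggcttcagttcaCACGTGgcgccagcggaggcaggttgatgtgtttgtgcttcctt
HSPD1: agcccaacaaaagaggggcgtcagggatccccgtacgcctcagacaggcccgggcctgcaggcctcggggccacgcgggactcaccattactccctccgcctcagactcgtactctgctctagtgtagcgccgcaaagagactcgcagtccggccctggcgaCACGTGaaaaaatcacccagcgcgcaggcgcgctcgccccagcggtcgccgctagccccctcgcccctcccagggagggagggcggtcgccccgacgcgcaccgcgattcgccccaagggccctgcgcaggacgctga
LAMP1: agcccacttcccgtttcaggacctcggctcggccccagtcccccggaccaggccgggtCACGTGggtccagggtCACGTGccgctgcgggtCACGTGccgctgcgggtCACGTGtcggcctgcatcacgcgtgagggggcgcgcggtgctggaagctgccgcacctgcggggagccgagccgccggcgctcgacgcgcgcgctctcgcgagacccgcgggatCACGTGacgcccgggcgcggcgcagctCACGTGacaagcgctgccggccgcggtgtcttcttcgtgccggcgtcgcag
CTSD: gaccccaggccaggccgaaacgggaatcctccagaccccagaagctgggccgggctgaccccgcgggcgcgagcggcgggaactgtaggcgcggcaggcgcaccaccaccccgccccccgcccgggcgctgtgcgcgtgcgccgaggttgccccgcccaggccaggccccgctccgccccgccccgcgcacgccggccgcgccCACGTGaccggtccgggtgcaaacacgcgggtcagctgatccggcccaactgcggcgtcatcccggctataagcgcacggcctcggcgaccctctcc

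The ODC1 window holds 2 E-boxes, the LAMP1 window 6 and each of the others 1. In FBL and GNL3 the E-box begins 6 bases after the start. A search of all genes used windows of the same 300 bases at GENCODE starts on GRCh37, on both strands. CACGTG was found in 18.1% of 580 windows of genes that rose, in 10.9% of 8970 windows of genes that did neither and in 7.91% of 898 windows of genes that fell, against 8.82% of 18858 windows of all protein-coding genes in the table. Read the other way, 9.13% of the 1150 kept genes with CACGTG rose and 6.17% fell, against 5.11% and 8.89% of the 9298 without it. Most windows of risen genes thus lacked these letters.

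A pair of further motifs was chosen after the values were seen. The variant letters CACGCG were in 29.3% of windows of genes that rose, 20.1% of those that did neither, 13.8% of those that fell and 15.5% of all. The letters TGANTCA, which factors of the FOS and JUN class (AP-1) bind, went the other way, with 2.76%, 3.42%, 7.02% and 5.34%. The same letters cannot match both E-box forms, though a window may hold several of these motifs. GC content was alike, with a median of 67.0% in genes that rose and 67.7% in genes that fell. A match describes a window and was not tested as a site.

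**Figure D3:**
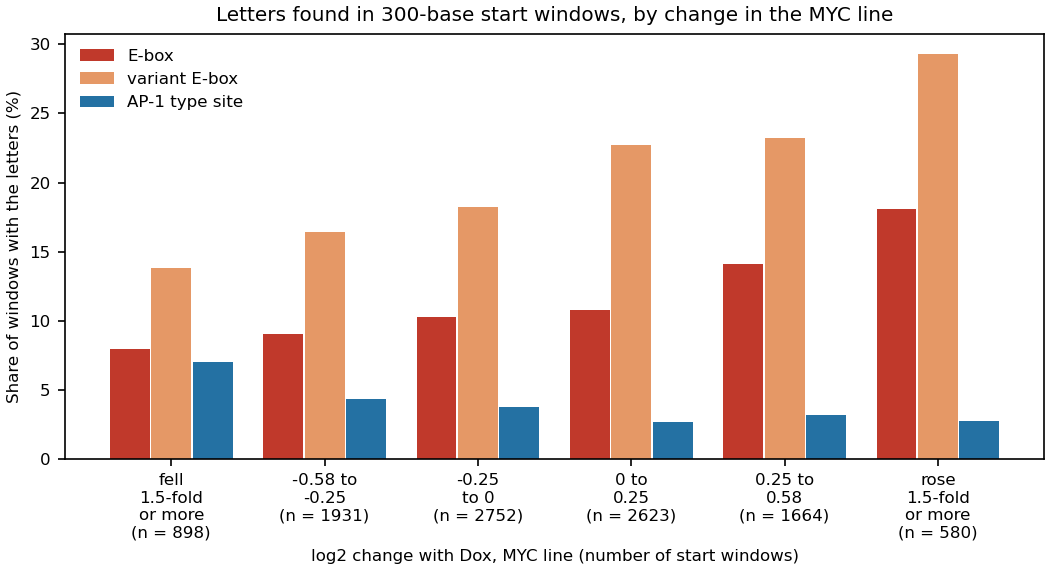
Share of 300-base start windows that hold the E-box letters, the variant E-box letters or the AP-1 type letters (y, %), for kept protein-coding genes grouped by their log2 change with Dox in the MYC line (x). Both E-box types were more frequent in genes with larger rises (18.1% and 29.3% at the right, 7.91% and 13.8% at the left), and the AP-1 type letters were most frequent among genes that fell (7.02%).

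Ribosome assembly, the longest of the 38 lists described, held the largest number of genes that rose. As a share of kept genes this was 52.3%, below the 68.4% of MYC targets and the 57.1% of host genes of small nucleolar RNAs. Some genes are in more than 1 list, such as NOP16 in MYC targets and ribosome assembly, so the counts of lists are not separate results. Of 107 kept factors of pre-rRNA processing and ribosome assembly, 56 rose, none fell, and all 107 were higher with Dox by some margin, with changes from 0.17 to 1.19. The median was 0.59 in the MYC line and 0.04 in the vector line. LYAR, a nucleolar zinc finger protein, was at 21.3, 21.2 and 21.5 FPKM in the other 3 libraries and at 48.9 FPKM with MYC and Dox. BOP1, which processes the large-subunit rRNA, went from 84.3 to 177 FPKM, and NOLC1, a nucleolar scaffold, from 32.0 to 65.4 FPKM. FBL, which methylates rRNA, went from 314 to 550 FPKM, and DKC1, the pseudouridine synthase, from 52.4 to 99.8 FPKM. CACGTG was in 40 of the 107 windows (37.4%). Within the list the 40 genes with the letters had a median change of 0.61 and the 67 without them 0.59. Among the MYC targets, 18 of the 22 genes with the letters rose and 21 of the 35 without them, with medians of 0.76 and 0.64. In nucleotide synthesis 3 of 5 genes with the letters rose and 8 of 31 without them. Other lists went either way. For RNA polymerase I and III the counts were 2 of 6 with the letters and 5 of 30 without. For amino acid supply they were 3 of 8 and 4 of 14. In serine and one-carbon metabolism 0 of 3 with the letters rose and 5 of 15 without. In mitochondrial import and folding these were 1 of 6 and 7 of 26, and in cytosolic chaperones 0 of 2 and 5 of 26.

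Fewer genes of the polymerases that transcribe rRNA and tRNA rose. Of 36 genes kept for RNA polymerase I and III, 7 rose and none fell, with a median of 0.35. POLR1B, the second largest subunit of polymerase I, went from 4.54 to 9.07 FPKM. POLR1E and POLR3E rose by 0.82 and 0.84. POLR3G, a polymerase III subunit, had 23.5 and 29.8 FPKM, a change of 0.34. Among 14 kept host genes of small nucleolar RNAs, whose introns release the guides of rRNA modification, 8 rose and none fell, with a median of 0.64 and of 0.14 in the vector line. SNHG12 went from 15.1 to 30.2 FPKM in the MYC line and from 15.6 to 22.7 FPKM in the vector line. SNHG1 went from 36.5 to 64.3 FPKM in the MYC line and from 38.0 to 38.8 FPKM in the vector line. The vector line with Dox thus held an intermediate level for SNHG12 and not for SNHG1.

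Translation factors changed less. Of 42 kept, 38 were higher by some margin and none fell, with a median of 0.32. Only 3 rose, which is 7.14%, close to the 5.9% of all genes. EIF3J and EIF3B, parts of the initiation factor that loads the small subunit, went from 26.4 to 45.3 FPKM and from 155 to 244 FPKM. EIF2B3, of the exchange factor for eIF2, went from 26.7 to 42.6 FPKM. EIF4E, the cap-binding protein, had 19.8 and 27.4 FPKM, below the 1.5-fold limit. Of 28 kept genes of nuclear transport, 5 rose and none fell, with a median of 0.35. XPO5, the exporter of pre-miRNA, went from 10.3 to 19.4 FPKM. RCC1, the exchange factor of RAN, went from 36.1 to 64.1 FPKM. RCC1 overlaps the host gene SNHG3 in the annotation, and reads of the 2 may have been shared.

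Genes of nucleotide synthesis rose in part. Of 36 kept enzymes, 11 rose and none fell, with a median of 0.33. PPAT and PAICS, which open and continue purine synthesis, went from 6.77 to 12.1 FPKM and from 83.8 to 134 FPKM. PFAS went from 5.50 to 9.79 FPKM. IMPDH2, the rate-limiting enzyme of guanine nucleotide synthesis, went from 138 to 243 FPKM, and DCTPP1, which clears modified dCTP, from 103 to 194 FPKM. CAD, which starts pyrimidine synthesis, had 11.3 and 15.2 FPKM, a change of 0.42.

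Genes of serine and one-carbon metabolism rose in part. Of 18 kept, 5 rose and 1 fell, with a median of 0.34, and the largest rise was that of the folate carrier SLC19A1, given above. MTHFD2 went from 38.0 to 71.2 FPKM and SHMT2 from 80.8 to 126 FPKM, both mitochondrial enzymes that pass one-carbon units from serine. PSAT1, of serine synthesis, went from 35.5 to 59.4 FPKM, whereas PHGDH, its first step, stayed at 263 and 279 FPKM. GLDC, which cleaves glycine, fell from 14.8 to 9.35 FPKM and was also lower with Dox in the vector line, at 14.99 and 11.6 FPKM.

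Of 15 kept polyamine genes, 2 rose and 2 fell (13.3% each), 6 were higher and 9 lower, and the median was -0.02. ODC1, the rate-limiting enzyme of synthesis on chromosome 2 (10580094 to 10588453, GRCh37), was at 32.8 and 42.2 FPKM in the vector line and went from 36.3 to 96.1 FPKM in the MYC line. SRM, spermidine synthase, went from 324 to 588 FPKM. SAT1, which acetylates polyamines for export, fell from 585 to 365 FPKM and was at 568 and 565 FPKM in the vector line.

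Genes of amino acid supply rose in part. Of 22 kept amino acid transporters and enzymes of amino acid metabolism, ASNS among them, 7 rose and 1 fell, with a median of 0.26. SLC6A15, a neutral amino acid transporter, went from 6.28 to 12.1 FPKM, and SLC43A1 from 6.03 to 10.01 FPKM. SLC1A5, the glutamine transporter, went from 111 to 171 FPKM, while its relative SLC1A4 fell from 113 to 71.4 FPKM. SLC7A5, the leucine carrier, had 82.9 and 114 FPKM and stayed below 1.5-fold.

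Mitochondrial import and folding genes were mostly higher, and fewer reached 1.5-fold. Of 32 kept, 31 were higher by some margin, 8 rose and none fell, with a median of 0.49. TRAP1, the mitochondrial HSP90 on chromosome 16 (3701640 to 3767554, GRCh37), was at 59.7, 66.4 and 59.9 FPKM in the other 3 libraries and at 152 FPKM with MYC and Dox. HSPD1 was at 528, 533 and 586 FPKM in the other 3 and at 1085 FPKM in the induced library. C1QBP, a matrix protein, went from 283 to 527 FPKM, and TOMM40, the import pore, from 104 to 177 FPKM. Among the largest rises outside the list, a pair also act in mitochondria. They were C10orf2 (the Twinkle helicase of mitochondrial DNA, 13.7 to 31.1 FPKM) and SOD2 (the manganese superoxide dismutase, 31.7 to 73.6 FPKM). SOD2 was the 1 gene of 25 kept antioxidant genes that rose, while 4 fell, among them TXNIP (25.98 to 13.2 FPKM) and HMOX1 (110 to 63.5 FPKM). NQO1 fell from 427 to 257 FPKM, and it was also lower with Dox in the vector line, at 417 and 316 FPKM.

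Chaperones were counted by compartment. Of 28 kept cytosolic chaperones and cochaperones, 5 rose and none fell, with a median of 0.42. FKBP4, a cochaperone of HSP90, went from 33.4 to 76.9 FPKM. HSP90AB1 had 680 and 910 FPKM. Of 16 kept genes of the endoplasmic reticulum, none rose or fell, 15 were lower and the median was -0.24. HSPA5 (BiP) had 252 and 237 FPKM.

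The remaining large rises had mixed roles. GEMIN5, which binds snRNA for assembly of splicing particles, was at 4.28 and 4.14 FPKM in the vector line. It went from 4.39 to 11.1 FPKM in the MYC line. RPIA, of the pentose phosphate pathway, went from 14.5 to 32.4 FPKM. NEFL, the light neurofilament subunit, was at 5.69 and 6.13 FPKM in the vector line and went from 10.7 to 27.3 FPKM in the MYC line. FRMD6-AS1, an antisense transcript, went from 5.36 to 16.6 FPKM, and whether the counting used strand is not given in the sources used here. HBQ1, of the alpha-globin cluster, was at 2.48 and 2.41 FPKM in the vector line and went from 2.87 to 13.6 FPKM in the MYC line. GEMIN5 and HBQ1 reached the mean of 5 FPKM asked of the largest rises only through the induced library. ASNS, asparagine synthetase, was at 8.88 and 13.4 FPKM in the vector line and went from 6.72 to 21.1 FPKM in the MYC line, a change of 1.64 with the MYC line and of 0.59 with the vector line. Among genes of a mean of 5 FPKM or more, small RNA genes left out, the largest rise against the untreated MYC line was that of RPL21, and it rested on that library. RPL21 was at 53.5 and 33.2 FPKM in the vector line and at 5.64 and 29.9 FPKM in the MYC line, so the untreated MYC line alone was low. Against the vector line with Dox its change was -0.15. RPL21 has processed copies elsewhere in the genome, and its reads may have been split among them.

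Cell cycle regulators were lowered on the side of the inhibitors. Of 8 kept inhibitors of cyclin-dependent kinases, 5 fell, none rose and the median was -0.98, against 0.01 in the vector line. CDKN1A (p21), on chromosome 6 (36644237 to 36655114, GRCh37), was at 12.5, 13.5 and 13.7 FPKM in the other 3 libraries and at 3.03 FPKM with MYC and Dox, a 4.42-fold fall. CDKN2C (p18) was at 27.7, 25.8 and 28.4 FPKM in those libraries and at 11.9 FPKM in the induced one. CDKN2D (p19) fell from 28.1 to 12.5 FPKM and CDKN2B (p15) from 4.11 to 2.31 FPKM. CDKN1B (p27) had 12.5 and 11.03 FPKM. Thus members of both inhibitor families, CIP/KIP and INK4, were among those that fell, and CDKN1B stayed within 1.5-fold.

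The genes of division itself moved little. Of 52 kept genes of G1 and S phase, 1 rose (1.92%) and 2 fell (3.85%), with a median of 0.06. Of 41 kept genes of mitosis none rose or fell, with a median of 0.01. CDC25A, the phosphatase that activates CDK2, rose from 7.53 to 12.9 FPKM. CCNE1 had 14.5 and 15.5 FPKM, E2F1 63.3 and 58.1 FPKM, CDK1 68.0 and 69.9 FPKM and MKI67 8.23 and 7.24 FPKM. RB1 fell from 6.94 to 4.13 FPKM. CDK2 was listed at 221 and 139 FPKM, but it overlaps PMEL, which had 6178 and 3394 FPKM and also fell, and reads of the 2 may have been shared.

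Of 19 kept genes of the BCL2 family, which sets the mitochondrial route to apoptosis, 3 fell and 1 rose, shares read against 8.85% and 5.9% of all genes. BCL2A1, a survival factor of melanoma, fell from 428 to 230 FPKM and BCL2L1 (BCL-xL) from 20.4 to 13.5 FPKM, while BID, which promotes death, rose from 21.6 to 41.9 FPKM. BCL2L11 (BIM) had 5.22 and 7.84 FPKM, just below 1.5-fold, and BCL2 stayed at 1.248 and 1.294 FPKM.

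Pigment cell genes were lower with MYC and Dox, and the libraries still had the profile of melanoma cells. Of 23 kept melanocyte genes, 11 fell, none rose and the median was -0.46, against -0.07 in the vector line. All 11 markers used to check the cell type were kept, and their summed FPKM was 8805, 8690.1, 8671 and 4785 in the vector line without and with Dox and the MYC line without and with Dox. Of the markers of keratinocytes (7), fibroblasts (7), endothelium (6) and leukocytes (7), only KRT10, LUM and LYZ were kept, and none of these was higher with Dox in the MYC line. Fewer cells of a type and less RNA of these genes per cell cannot be told apart in such libraries. PMEL, the fibril protein of melanosomes, was at 6176, 6227 and 6178 FPKM in the other 3 libraries and at 3394 FPKM in the induced one. S100B fell from 662 to 252 FPKM and MLANA from 1086 to 650 FPKM. TYR (tyrosinase) fell from 111 to 68.5 FPKM. The factors above them changed less, MITF having 90.0 and 67.2 FPKM and SOX10 191 and 156 FPKM. TYRP1 fell from 27.9 to 14.2 FPKM, but the vector line had 20.2 and 15.8 FPKM, so its fall rested in part on a high value in the untreated MYC line.

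Lysosomal genes were nearly all lower, and many hold an E-box. Of 53 kept, 51 were lower by some margin, 16 fell by 1.5-fold or more and none rose, with a median of -0.48 against 0.01 in the vector line. CD63, a tetraspanin of lysosomes and melanosomes on chromosome 12 (56119107 to 56123491, GRCh37), was at 4681, 4456 and 4454 FPKM in the other 3 libraries and at 2095 FPKM in the induced one. SMPD1 (acid sphingomyelinase) fell from 85.8 to 40.8 FPKM. CTSD (cathepsin D) had 866 and 616 FPKM, PSAP (prosaposin) 1189.8 and 854 FPKM and LAMP1 83.8 and 73.8 FPKM. CACGTG was in 18 of 52 lysosomal windows (34.6%), close to the 37.4% of the ribosome assembly list, and the lists moved in opposite directions. The longer letters TCACGTGA were chosen after the values were seen. They were in 9 of the 52 lysosomal windows (17.3%) and in 0 of the 107 ribosome assembly windows. Every match to them is also a match to CACGTG. Their share was 1.485% of all protein-coding windows and 2.32% of windows of kept genes. By change, 1.38% of windows of genes that rose held them, 2.44% of those that did neither and 1.67% of those that fell. They were thus not more frequent among genes that fell than among genes that did neither. The flanks in TCACGTGA are those of the element that TFEB and its MITF relatives bind in lysosomal promoters. Lysosomal genes with CACGTG had a median change of -0.40 and those without it -0.51.

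Matrix genes and their proteases held many falls. Of 34 kept genes of matrix and adhesion, 19 fell and 1 rose, with a median of -0.69. ITGA3, a laminin-binding integrin, was at 5.98, 6.02 and 6.17 FPKM in the other 3 libraries and at 1.80 FPKM with MYC and Dox. FN1 (fibronectin), on chromosome 2 (216225163 to 216300796, GRCh37), was at 174 and 154 FPKM in the vector line and fell from 205 to 89.7 FPKM in the MYC line. LAMB2, a laminin chain, fell from 26.6 to 11.4 FPKM, SPARC from 457 to 268 FPKM and the adhesion molecule MCAM from 190 to 83.2 FPKM. CD44, the hyaluronan receptor, had 60.6 and 54.8 FPKM. CEMIP, which degrades hyaluronan, fell from 6.16 to 1.95 FPKM.

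Of 28 kept proteases and their inhibitors, 17 fell and 1 rose, with a median of -0.70. Both proteases and inhibitors were among those that fell. MMP14, the membrane-anchored collagenase, was at 239, 234 and 243 FPKM in the other 3 libraries and at 117 FPKM in the induced one. TIMP1, a tissue inhibitor of metalloproteinases, was at 540, 558 and 541 FPKM in those libraries and at 287 FPKM in the induced one. PLAT (tissue plasminogen activator) fell from 69.2 to 34.3 FPKM, PLAUR, the urokinase receptor, from 72.5 to 30.4 FPKM, and SERPINE2, which inhibits such proteases, from 291 to 143 FPKM. CST1, a cystatin, fell from 85.4 to 29.0 FPKM.

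Galectins and S100 proteins, small secreted or calcium-binding proteins, were lower without exception. All 12 kept were lower with Dox by some margin, 5 fell and the median was -0.49. LGALS1 (galectin-1), on chromosome 22 (38071643 to 38075809, GRCh37), was at 5064, 5659 and 4843 FPKM in the other 3 libraries and at 1414 FPKM in the induced one. This gene was among the most abundant of those that fell. S100A6 fell from 448 to 201 FPKM and LGALS3 had 974 and 700 FPKM. S100A4, often studied in metastasis, was below 1 FPKM in every library and was not kept.

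Genes of the actin cytoskeleton fell in part, with 7 of 24 kept fallen, none risen and a median of -0.37. MYL6, the essential myosin light chain, fell from 821 to 414 FPKM and was at 863 and 889 FPKM in the vector line. VIM (vimentin) fell from 1989.8 to 1238 FPKM. CTGF, a target of YAP, fell from 21.6 to 8.26 FPKM, while ACTB had 2183 and 1941 FPKM.

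MAPK feedback genes and immediate-early genes were mostly lower. Of 14 kept feedback genes of the MAPK pathway, 6 fell and none rose, with a median of -0.54. DUSP6, the phosphatase of ERK, was at 33.2 and 33.6 FPKM in the vector line and fell from 34.5 to 22.3 FPKM in the MYC line. DUSP4 fell from 86.3 to 56.5 FPKM, SPRY4 from 12.8 to 8.16 FPKM and PHLDA1 from 61.1 to 32.8 FPKM. CCND1 (cyclin D1) had 130 and 92.1 FPKM. Of 19 kept immediate-early genes, 5 fell and none rose. JUN fell from 3.87 to 2.27 FPKM, and FOSL1, the FRA1 partner of JUN, had 65.5 and 48.5 FPKM. EGR1 had 14.2 and 13.3 FPKM in the MYC line and rose from 13.4 to 22.6 FPKM in the vector line.

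Immune recognition genes held some falls. Of 27 kept genes of antigen presentation, 7 fell and none rose, with a median of -0.45. HLA-C fell from 218 to 128 FPKM and HLA-DMA from 58.1 to 30.1 FPKM, whereas B2M had 733 and 634 FPKM. The HLA symbols are sums of several rows of the table and belong to a family of near-identical genes, so their values are uncertain. Of 24 kept interferon-induced genes, 5 fell and none rose, with a median of -0.34 against 0.13 in the vector line. STAT2 fell from 8.89 to 4.07 FPKM and IRF9 from 6.97 to 3.09 FPKM. Both act in the signal from interferon receptors to the nucleus. ISG15 had 33.9 and 34.4 FPKM in the MYC line and rose from 37.5 to 57.9 FPKM in the vector line.

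**Figure D4:**
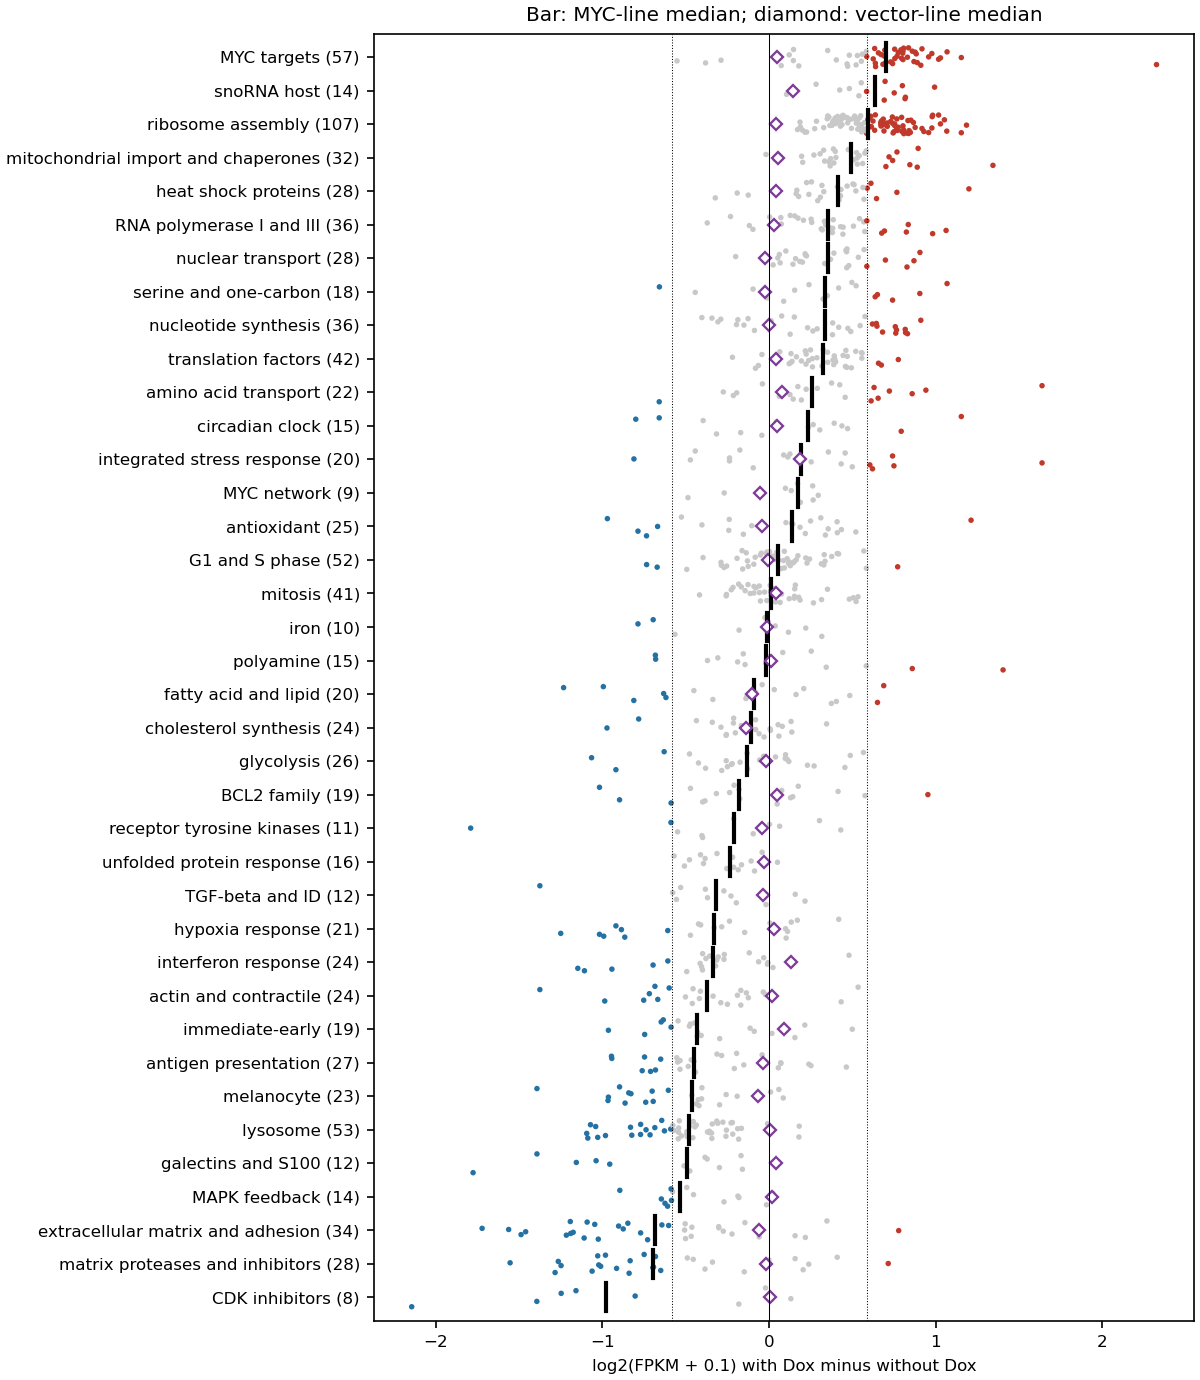
Change with Dox on the log2(FPKM + 0.1) scale (x) of the kept genes of 38 lists (y, number of genes in brackets), each point a gene in the MYC line, red where it rose and blue where it fell by at least 1.5-fold (dotted lines). Black bars are MYC-line medians and open diamonds vector-line medians; MYC targets (0.70), snoRNA hosts (0.64) and ribosome assembly (0.59) stand at the top, and CDK inhibitors (-0.98) at the bottom, while vector-line medians run from -0.14 to 0.19.

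Stress genes took different values in the lines. The list of ATF4 and CHOP targets of the integrated stress response had a median change of 0.19 in each line. ASNS and TRIB3 rose in both lines. In the vector line 7 of 20 kept genes changed, among them DDIT3 (CHOP, 31.7 to 59.0 FPKM) as well as TRIB3 (19.3 to 39.7 FPKM). In the MYC line 5 rose and 1 fell. DDIT3 had 32.3 and 30.3 FPKM there, and TRIB3 rose from 19.4 to 29.6 FPKM, remaining below the vector line with Dox. SESN2 had 1.41 and 1.70 FPKM in the MYC line and 1.45 and 2.82 FPKM in the vector line.

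Glycolysis and hypoxia genes did not rise. Of 26 kept genes of glucose uptake, glycolysis and lactate export, none rose and 3 fell (11.5%, against 8.85% of all genes). LDHA had 1404 and 1372 FPKM and HK2 had 55.8 and 42.8 FPKM. ENO2, the neuronal enolase, fell from 39.1 to 18.6 FPKM, and SLC2A3, a glucose transporter, from 10.7 to 5.62 FPKM. The lactate carriers parted, SLC16A3 falling from 20.2 to 13.02 FPKM and SLC16A1 having 57.2 and 84.8 FPKM. Of 21 kept hypoxia genes, 7 fell and none rose. NDRG1 fell from 7.54 to 3.11 FPKM, and VEGFA had 6.63 and 7.12 FPKM.

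Lipid, iron and clock genes gave mixed lists. Of 20 kept fatty acid and lipid genes, 2 rose (10%) and 5 fell (25%), against 5.9% and 8.85% of all genes. APOE fell from 476 to 203 FPKM and APOD from 445 to 223 FPKM, while FABP5 rose from 325 to 524 FPKM and FASN had 35.0 and 45.4 FPKM. Of 24 kept cholesterol genes, 2 fell (8.33%, near the share of all genes), and the median was -0.11 in the MYC line and -0.14 in the vector line. Of 10 kept iron genes, HMOX1 and FBXL5 (10.6 to 6.49 FPKM) fell, and TFRC, the transferrin receptor, had 75.5 and 94.1 FPKM. Of 15 kept clock genes, 2 rose and 2 fell (13.3% each). PER1 rose alike in both lines, from 1.82 to 3.12 FPKM in the vector line and from 1.89 to 3.36 FPKM in the MYC line, whereas BHLHE40, a repressor that also binds E-boxes, fell from 27.9 to 15.95 FPKM.

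The remaining lists were small. Of 12 kept TGF-beta and ID genes, 1 fell (8.33%, against 8.85% of all genes), namely CTGF, and ID1 had 58.5 and 57.7 FPKM. Of 11 kept receptor tyrosine kinases and dedifferentiation markers, 2 fell, 1 of them NGFR, a neural crest receptor, which went from 1.65 to 0.405 FPKM. AXL and EGFR were below 1 FPKM in every library and were not kept.

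The remaining large falls had mixed roles. SLAMF9, a receptor of the SLAM family, was at 9.63, 12.1 and 10.6 FPKM in the other 3 libraries and at 1.36 FPKM in the induced one. CD82, a tetraspanin, was at 99.8, 106 and 103 FPKM in those libraries and at 35.4 FPKM with MYC and Dox. DKK1, a secreted antagonist of WNT, fell from 9.27 to 3.18 FPKM, and C1QL1, a C1q-like secreted protein, from 10.4 to 2.87 FPKM. FCRLA, a member of the Fc receptor-like group, fell from 33.7 to 8.35 FPKM, GAPDHS, the testis form of GAPDH, from 159 to 52.1 FPKM, and CTSG (cathepsin G) from 20.7 to 5.48 FPKM. GRASP, SEPT4 and RAB4B fell by 1.70, 1.481 and 1.52, and RAB4B overlaps readthrough transcripts of its neighbours. SNAR-G1, a small noncoding RNA, was listed at 18.6, 10.7 and 9.18 FPKM in the other 3 libraries and at 0 with MYC and Dox, and a value of 0 in such a table can be a failed estimate. All 15 of the largest falls lay at least 1.5-fold below each of the other 3 libraries. Of the 15 largest rises, 14 lay at least 1.5-fold above each of them, RPL21 being the exception. These genes were picked by their change against the untreated MYC line, so their distance from that library was set by the choice. Their distance from the vector line uses the same induced value.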

How the data were processed

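RNA-seq was done on 4 libraries of SK-MEL-28 cells, 1 each of the vector and MYC lines without and with Dox. Per the labels and the study's methods, the authors sequenced on an Illumina HiSeq, and the submitters' processing notes name TopHat2 2.0.14, Cufflinks and the builds hg19 and GRCh37; the annotation and the use of strand are not given in the sources used here. The deposited table holds FPKM for 27032 rows. Rows of 1 symbol were summed (609 symbols), 1 row lacking a symbol was dropped, and genes averaging 1 FPKM or more were kept. Changes were taken on log2(FPKM + 0.1), which understates changes of low genes, and code was tested on simulated data. With 1 library per condition no test was made. The members and gene lists were chosen with earlier results of these data known. Named genes were MYC, the 15 largest rises and falls at a mean of 5 FPKM or more without symbols of small RNA classes (these prefixes did not cover SNAR-G1), each list's index genes, and up to 3 rises and 3 falls of each list; a few of these genes and 1 list are not reported here. Depth is approximate: 48.9% of 1962 low genes stood at whole multiples of a step within 1.2%, and 97 of them gave 34900000 to 41900000 fragments a library, for a counting error of the log2 change of 0.23 at 1 FPKM and 0.03 at 50 FPKM in a transcript of 2000 bases. Start windows came from GENCODE 44 on GRCh37 and printed promoters from RefSeq. RefSeq entries on chromosome 8 were left out, and 162 of 212 named genes had an entry among the others. Alternatives were other pseudocounts, filters, scalings, a 2-fold limit, the vector line with Dox as reference and, chosen after seeing the data, leaving out symbols of several rows. Python 3.11.15, pandas 2.3.3, numpy 2.4.6 and matplotlib 3.10.9 were used.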

Additional observations from a re-analysis of the deposited data

Results flagged for a closer look

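A few results stood out because the MYC line and the vector line moved in opposite directions with Dox. The difference was not tested, since each value comes from 1 pair of libraries. IRF9 changed by -1.15 in the MYC line and 0.35 in the vector line. JUN changed by -0.75 and 0.35, and NGFR by -1.79 and 0.41. SLAMF9 changed by -2.88 in the MYC line and 0.33 in the vector line, from 9.63 to 12.1 FPKM. The interferon-induced list had medians of -0.34 and 0.13. RPL21 changed by 2.38 in the MYC line and -0.69 in the vector line, and its lowest level, 5.64 FPKM, was that of the untreated MYC line.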

How the results depend on the processing

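No paired analysis was possible because each line and treatment had 1 library. With 1 library a side, culture, library and treatment cannot be told apart in any change. Against the 658 risen and 986 fallen genes of the MYC line, the counts were 1138 and 1748 with no filter, 436 and 549 at a mean of 5 FPKM or more, and 117 and 228 at 2-fold, which follow from the number of genes tested and the stricter limit. For the vector line (79 and 49) they were 529 and 387, 25 and 8, and 28 and 15 under these settings, and 43 and 22 with a pseudocount of 1. Genes apart from each of the other 3 libraries numbered 74 above and 124 below at 2-fold, and those below also 422 with a pseudocount of 1 and 400 at a mean of 5 FPKM or more. The share of risen among changed genes was 40.0%, 31.4% after rescaling to the same sum and 45.2% after median-ratio scaling. The median change of all genes was -0.03, and it was 0 with no filter, -0.00269 at a mean of 5 FPKM or more, -0.0745 after rescaling to the same sum, -0.00136 after median-ratio scaling, -0.0387 after upper-quartile scaling and -0.00657 against the vector line with Dox. Against that library 724 genes rose and 961 fell, including 494 of the 658 and 708 of the 986; that comparison shares the induced library. Of the 34 lists with a median of at least 0.1 in size, 2 turned with that reference, the integrated stress response to -0.34 and cholesterol synthesis to 0.16, and the clock list turned to -0.17 at a mean of 5 FPKM or more. Of 141 named genes past 1.5-fold, 122 stayed past it in the same direction against the vector line with Dox. Of those in the report, BHLHE40, CDK2, DUSP4, GLDC, NQO1, PER1, RB1, SHMT2, SLC1A4, SLC1A5, SNHG12, TYR, TYRP1, RPL21 and TRIB3 did not. RPL21 turned to -0.15 and TRIB3 to -0.42 with that reference, and none turned under the other settings. The causes were not tested.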
